A study of Homo sapiens with 2 samples.

Results

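Epithelial-mesenchymal transition (EMT) is the programme by which epithelial cells loosen their junctions and gain motility. The loci described here belong to 9 genes of that programme: the transcription factors SNAI1, SNAI2, ZEB1, ZEB2 and TWIST1, and the effector genes CDH1, CDH2, VIM and CD44. Members were chosen by position, as the summits that lie in 1 fixed window of hg19 per gene. That rule uses no measured value, but the 9 genes were chosen with earlier results of these data known. The windows held 9 of the 9393 listed peaks and spanned 1.93 Mb. The label of each window was checked against a RefSeq gene table only by chromosome, which was that of the named gene for 9 of 9 windows. That table is for another build (GRCh38.p14), so whether a peak lies in a promoter, an exon or an intron was not determined.

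The peaks come from a chromatin immunoprecipitation (ChIP) of Flag-tagged YAP-5SA from MCF10A cells, with 1 ChIP library and 1 input DNA library from the same chromatin and no replicate. The labels describe MCF10A as a non-transformed mammary line in one field and as a breast cancer line in another. YAP-5SA is the active form of the Hippo pathway co-activator, with the serines targeted by LATS kinases changed to alanine. How the construct was delivered, and whether the cells were 1 clone, is not given in the sources used here. Cells were kept in DMEM/F12 with 5% horse serum, 20 ng/ml EGF, insulin, hydrocortisone, cholera toxin and antibiotics, crosslinked in 1% formaldehyde over 15 min, and 50 µg of chromatin went onto Flag-M2 beads. Cells without YAP-5SA were not analysed here, so the peaks do not show what the tagged protein changed. For the same reason, how much of the Flag-M2 signal arises without the tagged protein was not measured.

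YAP does not bind DNA by itself and reaches chromatin mainly through the TEAD factors. Expression of active YAP in MCF10A cells is known to cause EMT-like changes. SNAI1, SNAI2, ZEB1, ZEB2 and TWIST1 encode DNA-binding proteins that recognise E-boxes, and several of them repress CDH1 directly. CDH1 encodes E-cadherin of epithelial adherens junctions, CDH2 encodes N-cadherin, VIM encodes the intermediate filament protein vimentin and CD44 encodes a hyaluronan receptor. Basal mammary lines such as MCF10A are known to carry CD44 at the surface.

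Most of the peaks lay in the windows of the effector genes. All 4 effector windows held a peak, with 3 at CD44, 2 at CDH1, 2 at CDH2 and 1 at VIM. Of the 5 transcription factor windows only that of SNAI2 held a peak, and those of SNAI1, ZEB1, ZEB2 and TWIST1 held none. As a background, the genome was tiled with consecutive stretches as long as each window. Between 25.2% (tiles of 110 kb) and 53.4% (tiles of 330 kb) of tiles held at least 1 summit. In all, 5 of the 9 windows held a peak, against 3.58 from the tile shares summed over the same lengths. Of the effector windows 4 did, against 1.57 from the tiles, and of the transcription factor windows 1 did, against 2.02. Tiles of each gene's own chromosome gave 1.42 for the effector and 2.10 for the transcription factor windows. Tiles span stretches where reads may not map, which lowers their shares. The split into both gene groups was chosen after seeing the data, so these counts describe it and do not test it.

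**Figure D1:**
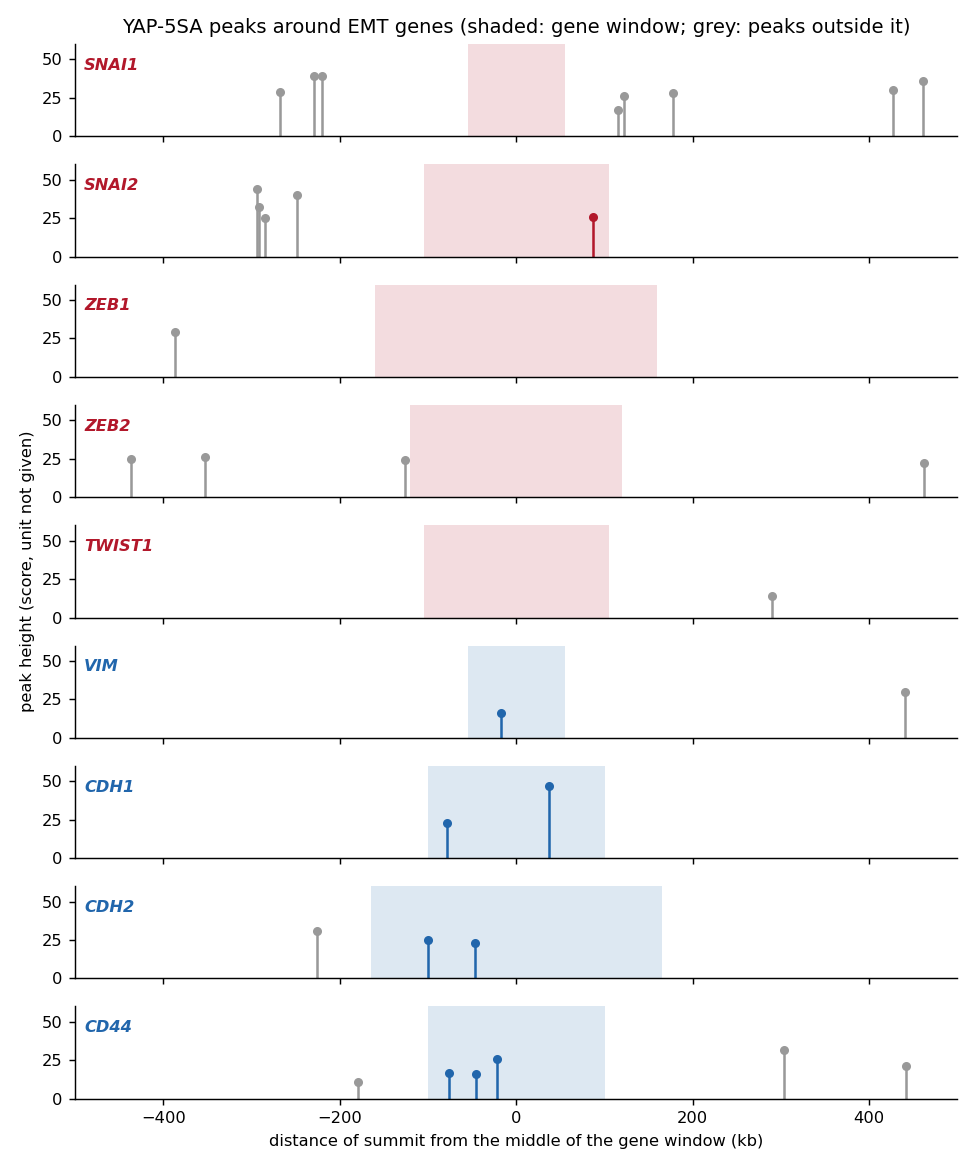
Each panel plots 1 gene, with the distance of every summit from the middle of its window (kb) on the horizontal axis and the peak height (authors' score, no unit given) on the vertical axis. Shading marks the window, coloured stems are peaks inside it and grey stems peaks outside. The panels of SNAI1, ZEB1, ZEB2 and TWIST1 have no coloured stem, while CD44 has 3.

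Per length, the 8 peaks of the effector windows (0.84 Mb in all) gave 9.52 peaks per Mb (95% exact Poisson interval 4.11 to 18.77). The 1 peak of the transcription factor windows (1.09 Mb) gave 0.917 per Mb (0.02 to 5.11). The whole list had 3.45 peaks per Mb. The ratio to the list was 2.76 (1.19 to 5.44) for the effector windows, 0.27 (0.01 to 1.48) for the transcription factor windows and 1.35 (0.62 to 2.56) over all 9 windows. The intervals of the effector and transcription factor densities overlap, which by itself does not say whether the densities differ. These intervals cover counting error only, and peaks cluster in this list, so true errors are wider. The 9 genes were chosen with earlier results known, and the split into both groups was chosen after seeing the data. The difference between both groups was therefore not tested, and an interval that leaves out 1 is no support for it.

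**Figure D2:**
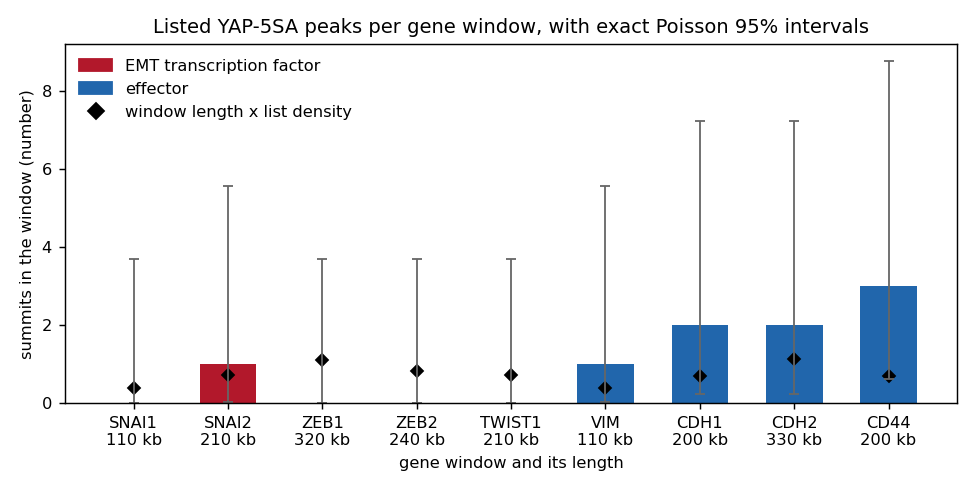
Bars give the number of summits in each gene window, whose length is under the gene name. Error bars are 95% exact Poisson intervals of the count, and diamonds are the number that the density of the whole list gives for that length. The diamonds lie from 0.38 at SNAI1 and VIM to 1.14 at CDH2, and lie inside the interval of every window, at CD44 only just above its lower end.

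CD44 had the most peaks, 3 in 200 kb. Their heights were 17, 16 and 26, against a list median of 24 with an interquartile range of 19 to 30. At least 3 summits were found in 6.02% of tiles of 200 kb. The first lay at chr11:35133267-35133962 with its summit at 35133664, the second at chr11:35164040-35164613 with its summit at 35164320, and the last at chr11:35188035-35188684 with its summit at 35188352 (hg19). Neighbouring summits were 30.7 and 24.0 kb apart. All 3 lay before the middle of the window, by 76.3, 45.7 and 21.6 kb, and the remaining 122 kb up to its end held none. Height differed among them: 11.5% of listed peaks were lower than the first, 7.92% lower than the middle one and 58.8% lower than the last. Widths were 696, 574 and 650 bp, around the list median of 611 bp. Beyond the window the nearest peaks were 79.1 kb before it, with a height of 11, and 203 kb after it, with a height of 32. The coding neighbours of CD44 in the gene table are PDHX, a subunit of the pyruvate dehydrogenase complex, and SLC1A2, a glutamate transporter.

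The sequence before the CD44 start is shown because this locus had the most peaks. It is RefSeq sequence of GRCh38.p14, chr11:35138921-35139190, plus strand, from 250 bases before to 20 after the start, and where it lies relative to the hg19 peaks was not determined. Searched letters, on both strands, would be in capitals: GGAATG, the core of the TEAD site, TGANTCA for AP-1, and CAGGTG, an E-box. N stands for any base, so TGANTCA is a loose form of the AP-1 site.
CD44: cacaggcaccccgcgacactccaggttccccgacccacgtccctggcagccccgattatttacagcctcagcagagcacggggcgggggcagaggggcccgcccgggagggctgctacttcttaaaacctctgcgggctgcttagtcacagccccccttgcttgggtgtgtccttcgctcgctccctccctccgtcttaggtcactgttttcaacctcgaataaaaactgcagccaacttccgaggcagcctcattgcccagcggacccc
None of the 3 was in this stretch, which says only that these letters are not in it. Among the 35116 promoter entries of 300 bases in the table, 14.0% hold GGAATG, 7.71% hold TGANTCA and 20.6% hold CAGGTG.

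CDH1, the E-cadherin gene, had the tallest peak of the 9 and a second of ordinary height. The tall one lay at chr16:68857133-68857629, with its summit at 68857472 and a height of 47. In the whole list 325 peaks were taller, 96.1% were lower, and on chromosome 16 only 4 of 177 peaks were taller. It was the only 1 of the 9 at 40 or more in height, a share of 11.1% (Wilson 95% interval 1.99 to 43.5) against 8.67% of the list. The interval was 497 bp wide, against a list median of 611 bp, and 18.8% of listed peaks were narrower. Its summit lay 339 bp from the left end and 157 bp from the right. The other peak lay 116 kb before it at chr16:68741490-68742076, with its summit at 68741728, a height of 23 and a width of 587 bp. That summit was 21.7 kb inside the window's start. The coding gene that precedes CDH1 in the gene table is CDH3, which encodes P-cadherin of basal epithelial cells, and the place of this peak relative to both cadherin genes was not determined. At least 2 summits were found in 15.1% of tiles of 200 kb. Chromosome 16 as a whole was sparse, with 2.45 peaks per Mb. The nearest peaks outside the window were 448 kb before it, with a height of 63, and 628 kb after it, with a height of 13.

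CDH2, the N-cadherin gene, had 2 peaks of near-median height. They lay at chr18:25544587-25545148, with its summit at 25544880, a height of 25 and a width of 562 bp, and at chr18:25598330-25598760, with its summit at 25598560, a height of 23 and a width of 431 bp. The summits were 53.7 kb apart. Both were before the middle of the window, by 100.1 and 46.4 kb, and the remaining 211 kb up to its end held none. At least 2 summits were found in 26.8% of tiles of 330 kb. A further peak of height 31 lay 60.6 kb before the window, and the nearest after it, of height 22, lay 355 kb beyond its end. The windows of the epithelial and the mesenchymal cadherin gene thus both held listed peaks, which were not assigned to the genes. The lower CDH1 peak matched a CDH2 peak in height at 23, while the tall CDH1 peak was 47 against 25 for the taller CDH2 peak. With 1 library these differences in height have no error to be set against.

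Of the 2 RefSeq starts of CDH2, the sequence of the downstream one is shown. Its entry was the only 1 of 12 promoter entries found for the 9 genes that held TGANTCA, against 7.71% of all entries. The matching letters are in capitals. The sequence runs from 250 bases before to 20 after the start at chr18:28036622-28036891, GRCh38.p14, minus strand.
CDH2: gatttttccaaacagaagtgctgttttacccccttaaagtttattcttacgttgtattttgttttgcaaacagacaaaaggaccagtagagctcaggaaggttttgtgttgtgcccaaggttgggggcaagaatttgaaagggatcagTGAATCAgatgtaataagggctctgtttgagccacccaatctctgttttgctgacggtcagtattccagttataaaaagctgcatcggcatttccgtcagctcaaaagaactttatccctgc
TGAATCA begins 102 bases before the start. It matches with A at the free base N, and whether AP-1 binds it was not tested. GGAATG and CAGGTG were in neither CDH2 entry. No listed peak was placed relative to this stretch.

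VIM, the vimentin gene, had 1 peak, and it was low. It lay at chr10:17256978-17257535, with its summit at 17257264, a height of 16 and a width of 558 bp. Only 7.92% of listed peaks were lower, and 365 of the 417 peaks of chromosome 10 were taller. At least 1 summit was found in 25.2% of tiles of 110 kb. The peak was isolated: the nearest other summit was 459 kb away. The closest peaks outside the window were 885 kb before it, with a height of 24, and 386 kb after it, with a height of 30. The second CD44 peak had the same height of 16.

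**Figure D3:**
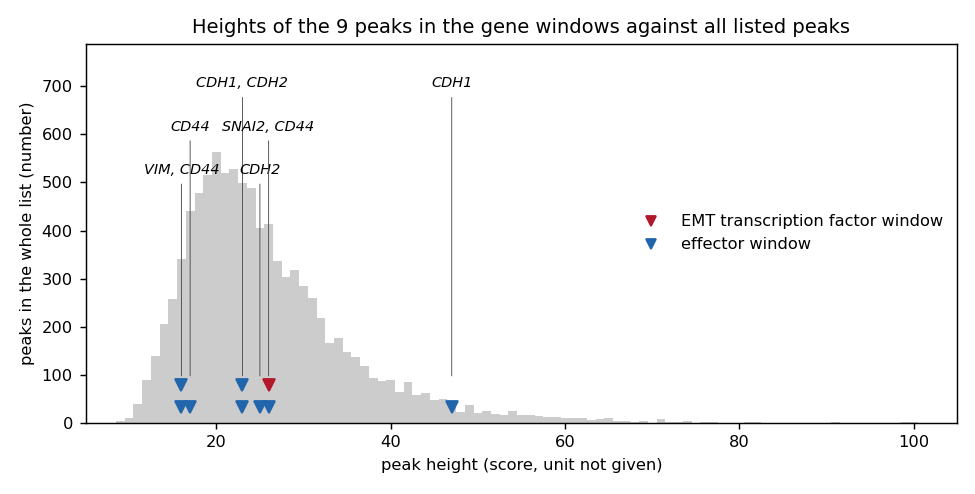
Grey bars give the number of listed peaks at each height (authors' score). Triangles mark the 9 peaks of the gene windows, labelled by gene, with transcription factor windows in red and effector windows in blue. Of the triangles 8 lie between 16 and 26, and the CDH1 peak at 47 stands in the upper tail.

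ZEB1, a zinc finger repressor held down by the miR-200 family in epithelial cells, had no peak in its 320 kb. The peaks on either side, of heights 29 and 27, lay 226 kb before and 360 kb after the window, so the peak-free stretch ran for 906 kb. Of the 9370 stretches between neighbouring summits, 638 (6.81%) were longer. Long stretches cover more of the genome: those at least as long made up 40.3% of the length between summits. At least 1 summit was found in 51.9% of tiles of 320 kb. By the one-sided rule that a count of 0 allows up to 3 peaks, the limit was 9.38 per Mb, and the upper end of the two-sided exact Poisson interval in the plot of counts was 11.53 per Mb. Both are above the 3.45 per Mb of the list, so a density like that of the list was not excluded by this window.

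The first of 7 RefSeq starts of ZEB1 is shown, although the window had no peak. Its entry was the only 1 of those 12 with GGAATG, against 14.0% of all entries, and ZEB1 supplied 7 of the 12. The sequence covers chr10:31318167-31318436 of GRCh38.p14, plus strand, with GGAATG or CAGGTG on either strand in capitals.
ZEB1: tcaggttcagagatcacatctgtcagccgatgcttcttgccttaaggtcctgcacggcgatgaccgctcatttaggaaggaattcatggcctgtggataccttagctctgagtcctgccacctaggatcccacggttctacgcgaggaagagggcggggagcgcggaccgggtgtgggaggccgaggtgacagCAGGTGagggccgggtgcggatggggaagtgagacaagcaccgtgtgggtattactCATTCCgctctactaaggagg
CATTCC, which is GGAATG on the other strand, begins 1 base before the start. CAGGTG begins 57 bases before it. The E-box letters are those that ZEB and SNAI proteins bind. Over the whole entries of 300 bases, ZEB1 had 1 match of GGAATG in 7 entries and 4 of CAGGTG in 2 of them. Those 2 were the only ones of the 12 with CAGGTG, against 20.6% of all entries. ZEB2, VIM and CD44 had 1 entry each, with none of the 3 motifs. Entries were found for 5 of the 9 genes, 12 in all. Of 15 other EMT genes, 6 had an entry, 18 entries in all. GGAATG was in 3 of the 18, against 14.0% of all entries, and these 3 were among the 10 entries of TCF4. TGANTCA was in 1 of the 18, against 7.71% of all entries, and CAGGTG in 0, against 20.6%. TCF4 encodes an E-box factor that can partner with TWIST1.

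ZEB2, the paralogue of ZEB1, likewise had no peak, in 240 kb. A peak of height 24 lay 5.55 kb before the window's start, and the next was 342 kb after its end, with a height of 22. The stretch between them was 588 kb, and 13.9% of stretches were longer. Stretches at least as long made up 56.7% of the length between summits. The empty window therefore depended on its edge: with 50 kb added on both sides it held 1 peak. At least 1 summit was found in 43.8% of tiles of 240 kb.

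TWIST1, a basic helix-loop-helix factor, lay in the longest peak-free stretch of the 9 loci. No summit was found over 2310 kb, between 17.14 and 19.44 Mb of chromosome 7. Only 109 of 9370 stretches (1.16%) were longer, 9 of them on the same chromosome, and stretches at least as long made up 16.6% of the length between summits. The peak that ended it had a height of 14 and lay 185 kb after the window of 210 kb. At least 1 summit was found in 40.3% of tiles of 210 kb, and in 37.0% of those on chromosome 7. The one-sided limit of 3 peaks is 14.3 per Mb, and the upper end of the exact Poisson interval is 17.57 per Mb. Both are above the 3.45 per Mb of the list. Within 1000 kb of the middle of the window there were 3 peaks, against 6.91 at the density of the list. The coding neighbours in the gene table are HDAC9, a histone deacetylase, and FERD3L, another basic helix-loop-helix factor.

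SNAI1, which encodes Snail, had no peak in a window of 110 kb although peaks were frequent around it. Within 250 kb of the middle of the window there were 5, within 500 kb 8 and within 1000 kb 21, against 1.73, 3.45 and 6.91 at the density of the list. Chromosome 20 has 6.07 peaks per Mb, and 38.4% of its tiles of 110 kb held at least 1 summit, against 25.2% of all such tiles. The nearest peaks were 165 kb before the window, with a height of 39, and 60.4 kb after it, with a height of 17. The peak-free stretch between them was 335 kb, and 27.2% of stretches were longer. Stretches at least as long made up 75.9% of the length between summits. With 50 kb added on both sides the window was still empty. In so short a window the one-sided limit of 3 peaks is 27.3 per Mb, and the upper end of the exact Poisson interval is 33.54 per Mb.

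SNAI2, which encodes Slug and is known to be active in basal mammary cells, was the only transcription factor gene whose window held a peak. It lay at chr8:49921327-49921697, with its summit at 49921552 and a height of 26. In height 58.8% of listed peaks were lower, but in width, at 371 bp, only 227 peaks (2.42%) were narrower. The summit was 86.6 kb from the middle of the window and 18.4 kb inside its end, and it fell outside when the window was narrowed by 25 kb on both sides. At least 1 summit was found in 40.3% of tiles of 210 kb. The nearest other summit was 335 kb away, in a run of peaks before the window of which the closest had a height of 40, and the next after it was 1110 kb beyond the window's end. The coding neighbours are CLXN and PPDPFL, and the peak was not assigned to any of the 3 genes.

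**Figure D4:**
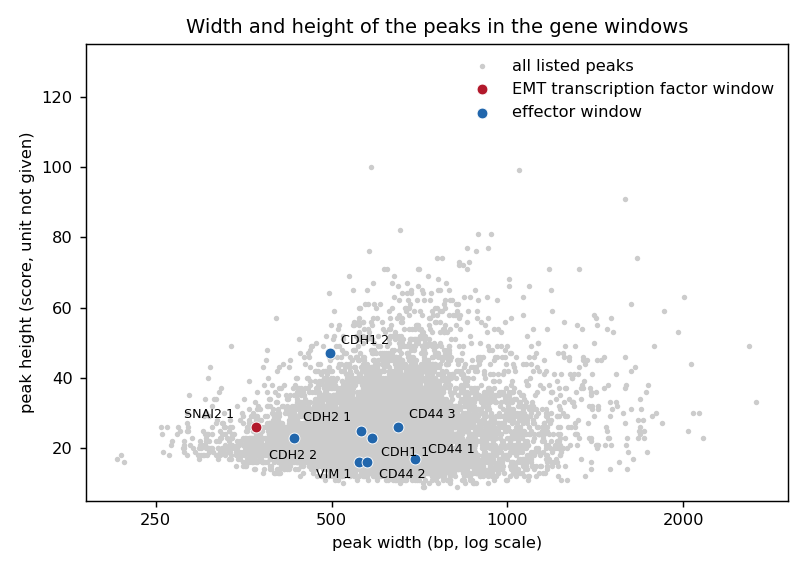
Each grey point is a width and height at which the list has at least 1 peak, with width (bp) on a log axis and height (authors' score) on a linear one. Coloured points are the 9 peaks of the gene windows, numbered along the chromosome within a gene. The SNAI2 peak, 371 bp wide, is the narrowest of them, and the second CDH1 peak is the highest at 47.

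As a set, the 9 peaks had heights and widths near those of the list. Their median height was 23 (95% order-statistic interval 16 to 26), against 24 for the list, and 4 of 9 (44.4%) were higher than the list median, against 45.5% of all peaks. Their median width was 562 bp, with a range of 371 to 696 bp, against 611 bp for the list, whose interquartile range was 520 to 709 bp. Of the 9 peaks, 7 (77.8%, Wilson 95% interval 45.3 to 93.7) were narrower than the list median, against 49.8% of all peaks, and only the outer CD44 peaks were wider. None had another summit within 10 kb, against 19.5% of the list, and 3, all at CD44, had one within 50 kb, against 47.8%. The median distance to the nearest summit was 53.7 kb, against 55.8 kb for the list. Among the 814 peaks of the list at 40 or more in height, 1 was a member. Copy number of the cell line and the input signal were not analysed here, and their part in any height or density was not tested.

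Peaks were also counted at wider distances. Within 100 kb of the 9 window middles there were 8 peaks, against 6.22 at the density of the list. Within 250 kb there were 18, against 15.5. Within 500 kb there were 32, against 31.1, and within 1000 kb 74, against 62.2. Of those 74, SNAI1 had 21, CD44 14 and each of the other loci 3 to 8, against 6.91 for each locus. CD44 had 6 peaks within 500 kb, CDH1 2, CDH2 3 and VIM 2, against 3.45 for each at the density of the list. SNAI1 had 8, SNAI2 5, ZEB2 4, and ZEB1 and TWIST1 1 each. At this distance the 4 effector loci had 13 peaks, against 13.8 at the density of the list, and the 5 transcription factor loci had 19, against 17.3.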

How the data were processed

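BWA 0.6.1, MACS and hg19 are named in the submitters' processing notes. The version of MACS, its threshold and whether the input served as control were not stated there. The deposited peaks come, per the file headers, as summits in one track and intervals in another, and both were joined by order. The score deposited by the authors at each summit, called height, is a whole number with no stated unit or scaling, so it only describes and ranks peaks within this list. Read depth is unknown, and no replicate exists, so no p-value is given.

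Interval starts were made 1-based and summit positions are as listed, on a grid of about 32 bp. Windows were read from a fixed list, and a peak belongs to a window if its summit lies inside. All 9 genes and all peaks in windows of at most 8 peaks are named, with the nearest peak outside on both sides. The members and lists were chosen with earlier results of these data known. List density used each chromosome's span between its outermost summits, without the longest stretch that holds no peak. Background tiles ran from first to last summit. Intervals are exact Poisson, Wilson or order-statistic, at 95%, and cover counting error only. The limit given for a count of 0 is the one-sided rule of 3 counts. Promoter entries came from RefSeq (GRCh38.p14). hg19 annotation and the sequence under the peaks were not used here. Counting and motif search were tested on simulated data. Work used Python 3.11.15, numpy 2.4.6, pandas 2.3.3, scipy 1.17.1 and matplotlib 3.10.9.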

Additional observations from a re-analysis of the deposited data

How the results depend on the processing

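No paired analysis was possible because the ChIP and the input have a single library each, and for the same reason no replicate could be left out. Restriction to peaks higher than the list median left 4 of the 9 peaks in the windows, by construction. The count was 9 with interval overlap and with overlapping intervals merged, 10 with windows widened by 50 kb, 6 with windows narrowed by 25 kb and 8 in equal windows of 200 kb. Windows that hold a peak numbered 4 to 6 under the alternatives run, against 5. The density ratio of all windows was 1.45 when full chromosome spans were used and 1.38 with only the windows' chromosomes, and lay between 1.00 without the CD44 window and 1.62 without the ZEB1 window, against 1.35. The median height was 23 to 24 under every alternative run, against 23. The split into both gene groups was chosen after seeing the data, as were its alternatives. For the transcription factor windows the ratio was 0.27, and 0.00 both with windows narrowed by 25 kb and without the SNAI2 window, since it rests on 1 peak. Otherwise it lay between 0.29 and 0.38. That of the effector windows was 2.76, fell to 1.87 with windows widened by 50 kb, and lay between 2.26 and 3.41 when 1 window was left out. Alternatives that need an hg19 genome were not run. All values rest on 1 library of unknown depth.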
